A study of Mus musculus with 30 samples.

Results

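Matricellular and provisional matrix glycoproteins were followed in the mouse tibialis anterior, a shin muscle, before and after volumetric muscle loss, a wound in which a block of muscle is lost. They were represented by 10 genes listed by symbol, with earlier results of these data known, namely Fn1, Postn, Tnc, Thbs1, Thbs2, Sparc, Ccn1, Ccn2, Spon2 and Lrrc15. All 10 were among the 26264 genes listed in every library, and all 10 passed the filter on low counts that left 17136 genes for testing. Muscle was uninjured or was collected 4, 7, 11 or 15 days after the injury, and each time had 3 libraries labelled female and 3 labelled male, 30 in all. Total RNA of the whole muscle was sequenced, and the values analysed were read counts per gene. The labels give no strain, genotype, age or treatment other than the injury, and they do not say whether the uninjured muscles came from separate animals or whether each library came from 1 animal. The p-values therefore measure the spread between these libraries, which may be technical.

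Matricellular proteins are secreted into the extracellular matrix but act mainly on cells, binding integrins, growth factors and matrix enzymes rather than bearing load, and most are scarce in resting adult tissue and abundant in wounds, tendon and scars. The provisional matrix is the first scaffold laid down in a wound, built on fibrin and fibronectin and later replaced by collagen. In injured skeletal muscle, fibronectin, tenascin-C and periostin are known as parts of the transitional matrix around regenerating fibres, and thrombospondins and CCN proteins are known to be induced by wounding, mechanical strain and transforming growth factor beta.

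All 10 genes rose at days 7 and 15 after the injury, and 3 courses over time could be described. Fn1, Postn, Tnc, Thbs2, Sparc and Lrrc15 were high at day 4 and were still above every uninjured library at day 15. Thbs1, Ccn1 and Ccn2 were high early and late, and of these only Ccn1 and Ccn2 were called higher at day 15 than at day 11. Thbs1 also fitted the description of the first group, so its place in a separate course is loose. Spon2 overlapped with the uninjured range at day 4, where it was not called, and rose at day 7 and later.

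Uninjured libraries held 40757683 to 48860849 counts, day 4 libraries 47936072 to 57277336, day 7 libraries 20674040 to 52483561, day 11 libraries 27129433 to 38555740 and day 15 libraries 13089999 to 30024528. Of all counts, the 10 genes took between 0.0149% and 0.0413% in uninjured libraries, between 0.5002% and 0.857% in day 4 libraries, 0.251% and 1.66% in day 7 libraries, 0.238% and 1.14% in day 11 libraries, and 0.257% and 0.735% in day 15 libraries. Levels are CPM, the counts of a gene scaled to a common library size, after scaling by trimmed mean of M-values (TMM), and the mean TMM factor was 0.527 in uninjured libraries and 1.299, 1.19, 1.16 and 1.08 at days 4, 7, 11 and 15. The median log2 fold change of all tested genes against uninjured muscle was 0.17, 0.24, 0.32 and 0.26 at those days, and it was 1.47, 1.42, 1.46 and 1.297 when libraries were scaled by their totals alone. Under that scaling, the share of called genes that were higher was 89.5%, 91.3%, 90.1% and 89.8% in place of 54.8%, 58.1%, 59.0% and 57.6%. The summed level of 8 mature fibre markers was 258098 to 349325 CPM in uninjured muscle, which checks the tissue label, 6707 to 43057 CPM at day 4 and 38833 to 96135 CPM at day 15. The library labelled female day 11 replicate 3 had 0.109 CPM of Xist and 57.4 CPM of Ddx3y. The other 14 female libraries had 83.0 to 1062 CPM of Xist. Male libraries had 0 to 3.49 CPM of Xist and 30.6 to 94.1 CPM of Ddx3y. By both genes the library labelled female day 11 replicate 3 was thus like a male library, and it was kept under its label. Without it, the number of the 10 genes called was unchanged at 9 for day 11 against uninjured muscle, 0 for day 11 against day 7 and 2 for day 15 against day 11, and the day 11 log2 fold changes against uninjured muscle were, for example, 8.38 for Lrrc15 and 8.53 for Postn in place of 8.15 and 8.33.

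At day 4 against uninjured muscle, 9 of the 10 genes rose and none fell, where 40.1% of all tested genes were called higher and 33.0% lower (edgeR quasi-likelihood test, adjusted p under 0.05 over all tested genes). For 8 of the 10 every day 4 library lay above every uninjured library, as 31.0% of all genes did. At day 7 all 10 rose, against 41.6% of genes called higher and 29.9% lower, and 8 of 10 did not overlap with uninjured libraries, against 24.9% of genes. At day 11, 9 of 10 rose, against 42.7% higher and 29.7% lower, and 8 of 10 did not overlap, against 25.8%. At day 15 all 10 rose without overlap, against 39.7% of genes called higher, 29.3% called lower and 24.1% higher without overlap. The median log2 fold change of the 10 genes was 4.70, 3.87, 4.45 and 4.00 at the 4 days, and 6.02, 5.13, 5.59 and 5.04 with scaling by library totals alone. These 4 comparisons share the same 6 uninjured libraries. Because the 10 genes were chosen with earlier results of these data known, the counts describe these genes and are no test of them as a set. They include Lrrc15, which passed the count filter through its injured libraries. In RNA from whole muscle, a change in the number of cells of a type and a change in RNA per cell cannot be told apart.

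**Figure D1:**
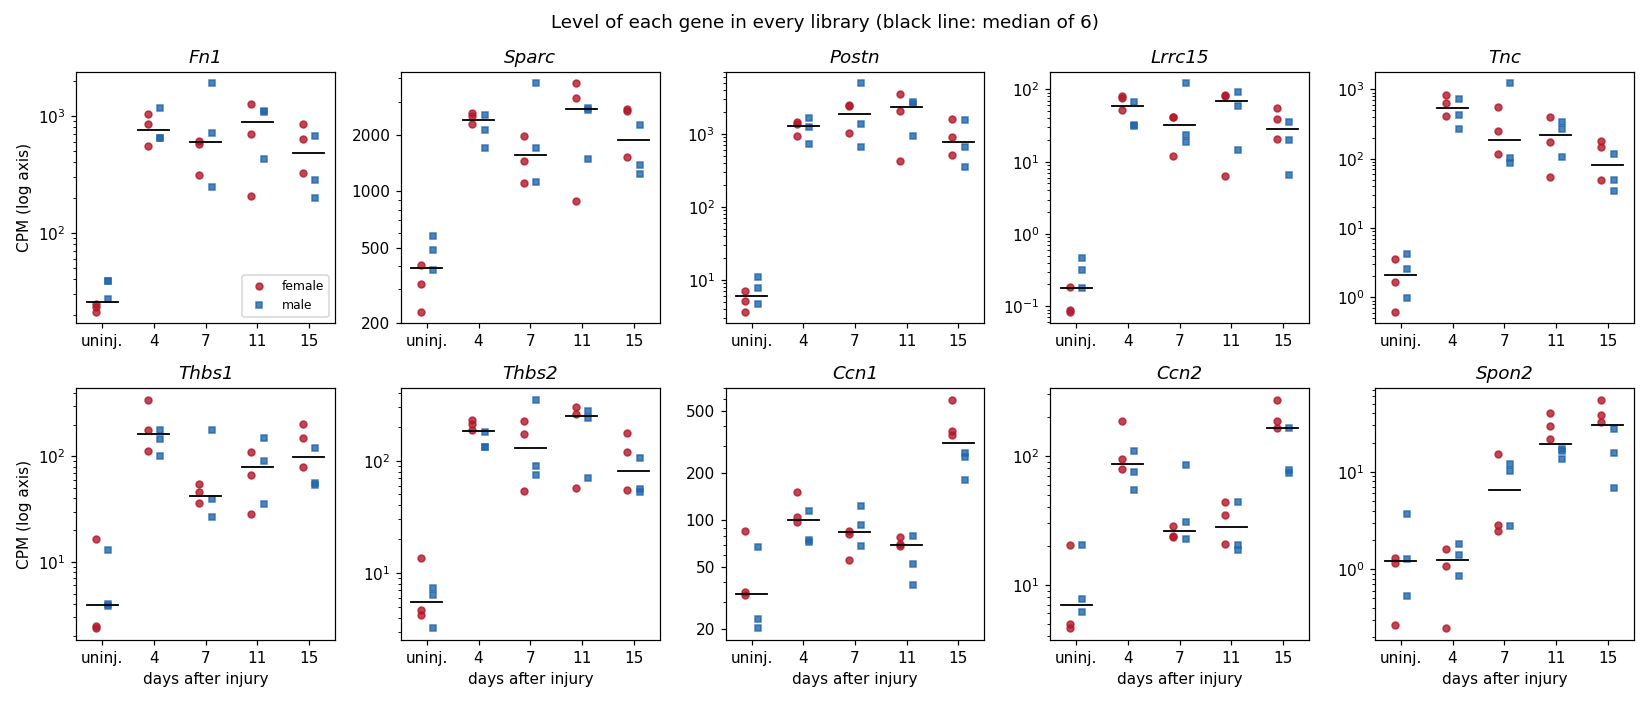
Level of each of the 10 genes in every library, in CPM on a log axis, by time from uninjured to day 15, with red circles for female and blue squares for male libraries and a black line at the median of 6. Spon2 sits at the uninjured level at day 4, and Ccn1 and Ccn2 have their highest medians at day 15.

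Fn1 encodes fibronectin, the glycoprotein that cells and fibrin bind first in a wound. Its lowest, median and highest levels were 21.1, 25.8 and 38.5 CPM in uninjured muscle, 555, 750.1 and 1163 CPM at day 4, 248, 592 and 1898 CPM at day 7, 206, 894 and 1253 CPM at day 11, and 200.1, 477 and 859 CPM at day 15. All 24 injured libraries lay above the 6 uninjured ones, and the injured times overlapped with each other. The fitted log2 fold change of Fn1 against uninjured muscle was 4.85 ± 0.49 (SE) at day 4, a 28.8-fold difference, and 4.61 ± 0.48, 4.81 ± 0.49 and 4.09 ± 0.47 at days 7, 11 and 15, with an adjusted p of at most 6.11e-08 (edgeR). No step between injured days was called for Fn1, and day 15 minus day 4 was -0.76 ± 0.42 with an adjusted p of 0.132. Without male day 15 replicate 1 that difference was -1.09 with an adjusted p of 0.0400.

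Postn encodes periostin, a matricellular protein that binds collagen, fibronectin and tenascin-C and is a familiar product of activated fibroblasts. Postn had lowest, median and highest levels of 3.62, 6.04 and 10.8 CPM in uninjured muscle, 729, 1287 and 1657 CPM at day 4, 668, 1890.4 and 4909 CPM at day 7, 427, 2326 and 3503 CPM at day 11, and 354, 780.0 and 1606 CPM at day 15. The lowest injured library was more than an order of magnitude above the highest uninjured library, and male day 7 replicate 2 was the highest of all. The log2 fold change of Postn was 7.59 ± 0.64 at day 4, 8.39 ± 0.66 at day 7, 8.33 ± 0.66 at day 11 and 7.18 ± 0.63 at day 15, which are 192-fold, 335-fold, 321-fold and 145-fold, with an adjusted p of at most 1.24e-09 (edgeR). Without male day 7 replicate 2 the day 7 value was 7.79. Day 15 minus day 11 was -1.15 ± 0.48 with an adjusted p of 0.184, so the lower median at day 15 did not pass the test.

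RefSeq (assembly GRCm38.p6, a build other than that of the counts) gave promoter sequence for 6 of the 10 genes, and the 250 bases before the start are printed for 3 of them, Postn and Lrrc15 from the genes with the common course and Ccn1 from those that were high early and late. The Postn sequence belongs to the second of its listed starts, chr3:54360857-54361106 on the plus strand, and TATAAA, in capitals, begins 26 bases before that start.
Postn: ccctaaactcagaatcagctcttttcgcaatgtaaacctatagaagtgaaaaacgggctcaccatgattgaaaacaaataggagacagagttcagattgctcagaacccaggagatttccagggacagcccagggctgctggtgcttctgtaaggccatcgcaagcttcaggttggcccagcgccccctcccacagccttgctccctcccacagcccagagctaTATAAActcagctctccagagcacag
The Lrrc15 sequence lies at chr16:30283255-30283504 on the minus strand and holds the AP-1 motif TGANTCA, in capitals, 53 bases before the start.
Lrrc15: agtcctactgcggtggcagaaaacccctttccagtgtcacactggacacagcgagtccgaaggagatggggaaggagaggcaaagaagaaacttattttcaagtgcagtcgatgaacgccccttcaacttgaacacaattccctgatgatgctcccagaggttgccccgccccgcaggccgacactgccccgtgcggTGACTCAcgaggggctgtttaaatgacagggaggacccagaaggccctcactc
The Ccn1 sequence lies at chr3:145649986-145650235 on the minus strand. The capitals mark the TEAD motif GGAATG, read on the reverse strand, 103 bases before the start and TATAAA 25 bases before it.
Ccn1: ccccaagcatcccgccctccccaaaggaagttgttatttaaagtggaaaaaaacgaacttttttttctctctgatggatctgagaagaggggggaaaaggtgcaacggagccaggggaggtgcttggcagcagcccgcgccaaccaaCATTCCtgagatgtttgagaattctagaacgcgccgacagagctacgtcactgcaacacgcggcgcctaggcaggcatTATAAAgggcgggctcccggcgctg
Searched on both strands of the 250-base windows of 32851 promoters, GGAATG occurred in 12.6%, TGANTCA in 6.75%, TATAAA in 12.4%, the SMAD motif CAGACA in 17.1%, the cyclic AMP response motif TGACGTCA in 1.55% and the CArG box in 1.47%. The first listed start of Postn had no match to any of these motifs. Among the genes not printed, CAGACA occurred for a Tnc start, Sparc and Thbs2, and TATAAA for Tnc and Thbs2. A match is a description of these letters and not a site shown to be used.

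Lrrc15 encodes a leucine-rich repeat membrane protein that is a marker of fibroblasts in wounds, arthritis and tumours. It had 2 to 12 counts in each uninjured library, so its fold changes rest on few uninjured counts and it passed the count filter through its injured libraries. Lrrc15 had lowest, median and highest levels of 0.0833, 0.181 and 0.458 CPM in uninjured muscle, 30.9, 58.9 and 80.0 CPM at day 4, 12.1, 32.5 and 122 CPM at day 7, 6.32, 69.6 and 92.6 CPM at day 11, and 6.49, 28.0 and 55.2 CPM at day 15. Even the lowest injured libraries, female day 11 replicate 3 and male day 15 replicate 3, were above every uninjured library. The log2 fold change of Lrrc15 was 8.11 ± 0.80 at day 4, 7.72 ± 0.80 at day 7, 8.15 ± 0.80 at day 11 and 7.15 ± 0.79 at day 15, with an adjusted p of at most 3.09e-08 (edgeR). Without male day 7 replicate 2 the day 7 value was 7.03. No difference between injured days was called for Lrrc15, and day 15 minus day 4 was -0.96 ± 0.53 with an adjusted p of 0.131.

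Sparc encodes osteonectin, a collagen-binding matricellular protein that assists collagen deposition. Per kilobase of exon it had the highest level of the 10 in uninjured muscle, and its relative change was the smallest of the 6 genes with the common course. Sparc had lowest, median and highest levels of 228, 392 and 579 CPM in uninjured muscle, 1699.7, 2412 and 2606 CPM at day 4, 1108, 1572 and 3769.6 CPM at day 7, 891, 2756 and 3768 CPM at day 11, and 1234, 1888 and 2744 CPM at day 15. No injured library reached down to the uninjured range, and the injured times overlapped with each other. Sparc rose by a log2 fold change of 2.55 ± 0.34, 2.22 ± 0.33, 2.66 ± 0.34 and 2.31 ± 0.33 at days 4, 7, 11 and 15, with an adjusted p of at most 2.16e-06 (edgeR). None of its differences between injured days was called, the widest being 0.44 ± 0.32 for day 11 minus day 7.

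Tnc encodes tenascin-C, a hexameric glycoprotein that loosens cell adhesion to fibronectin and appears around regenerating muscle fibres. Tnc had lowest, median and highest levels of 0.615, 2.10 and 4.16 CPM in uninjured muscle, 269, 531 and 819 CPM at day 4, 87.6, 186 and 1225 CPM at day 7, 54.4, 223 and 399.9 CPM at day 11, and 34.3, 82.3 and 182 CPM at day 15. All injured libraries were above all uninjured ones, and at day 15 all 6 libraries were below all 6 of day 4. The log2 fold change of Tnc against uninjured muscle was 7.93 ± 0.80 at day 4, 7.42 ± 0.78 at day 7, 6.65 ± 0.76 at day 11 and 5.36 ± 0.72 at day 15, or 244-fold at day 4 and 41.1-fold at day 15, with an adjusted p of at most 5.17e-07 (edgeR). Tnc fell by 2.57 ± 0.62 on the log2 scale at day 15 against day 4 (adjusted p = 0.00133, edgeR). The day 7 libraries of Tnc were spread most widely, because male day 7 replicate 2 stood at 1225 CPM and the next library at 549 CPM. Without that library the day 7 value against uninjured muscle was 6.26, and day 7 minus day 4, which was -0.51 ± 0.59 with all libraries, was -1.67 with an adjusted p of 0.0155.

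Thbs2 encodes thrombospondin-2, a matricellular protein of fibroblasts that restrains blood vessel growth and shapes collagen fibrils. Its lowest, median and highest levels were 3.21, 5.54 and 13.7 CPM in uninjured muscle, 131, 183 and 228 CPM at day 4, 54.1, 131 and 348 CPM at day 7, 57.6, 250.2 and 303 CPM at day 11, and 53.1, 80.4 and 176 CPM at day 15. The groups of injured and uninjured libraries did not overlap. The log2 fold change of Thbs2 was 4.75 ± 0.52, 4.62 ± 0.52, 4.95 ± 0.53 and 3.81 ± 0.50 at days 4, 7, 11 and 15, with an adjusted p of at most 4.24e-07 (edgeR). Day 15 minus day 11 was -1.14 ± 0.45 (adjusted p = 0.156) and day 15 minus day 4 was -0.95 ± 0.45 (adjusted p = 0.0794), and neither was called with edgeR. The day 15 minus day 4 difference was called at -0.93 (adjusted p = 0.00522) when only the compared groups were fitted.

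Thbs1 encodes thrombospondin-1, which platelets release at wounding and which can activate latent transforming growth factor beta. Its lowest, median and highest levels were 2.33, 3.91 and 16.4 CPM in uninjured muscle, 101, 162 and 344 CPM at day 4, 26.6, 42.5 and 177 CPM at day 7, 28.3, 78.9 and 150.0 CPM at day 11, and 54.1, 99.6 and 202 CPM at day 15. Replicate 1 of both sexes was the high end of the uninjured group, at 16.4 CPM in the female and 12.9 CPM in the male library, and the other 4 uninjured libraries were at 2.33 to 3.97 CPM. Injured libraries were above all of them. The log2 fold change of Thbs1 was 4.64 ± 0.59 at day 4, 3.12 ± 0.55 at day 7, 3.51 ± 0.56 at day 11 and 3.91 ± 0.57 at day 15, with an adjusted p of at most 1.95e-05 (edgeR). Without female uninjured replicate 1 these values were 5.42, 3.90, 4.29 and 4.69, and without male day 7 replicate 2 the day 7 value was 2.48. Thbs1 fell by 1.51 ± 0.51 on the log2 scale at day 7 against day 4 (adjusted p = 0.0240, edgeR). That difference was -2.17 without male day 7 replicate 2. It lost its call without female day 4 replicate 2 (-1.27, adjusted p = 0.0814), male day 4 replicate 1 (-1.45, 0.0511), male day 7 replicate 1 (-1.31, 0.0732) or male day 7 replicate 3 (-1.35, 0.0597).

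Ccn1 and Ccn2 encode CYR61 and connective tissue growth factor, heparin-binding matricellular proteins that are classical targets of the YAP and TEAD transcription regulators. The lowest, median and highest levels of Ccn1 were 20.3, 33.8 and 84.97 CPM in uninjured muscle, 72.7, 101 and 152 CPM at day 4, 55.7, 83.6 and 123 CPM at day 7, 38.4, 69.5 and 78.9 CPM at day 11, and 180.4, 313 and 592 CPM at day 15. Day 15 stood above every other time without overlap, whereas days 4, 7 and 11 overlapped with the uninjured libraries. That overlap came from female and male uninjured replicate 1, at 84.97 and 67.8 CPM, because the other 4 uninjured libraries were at 20.3 to 34.5 CPM. Ccn1 rose by a log2 fold change of 1.23 ± 0.28 at day 4 (adjusted p = 0.000428), 0.95 ± 0.28 at day 7 (0.00419) and 2.89 ± 0.30 at day 15 (1.41e-08), the last a 7.41-fold difference (edgeR). At day 11 the value was 0.56 ± 0.28 and was not called (adjusted p = 0.0765, edgeR). It was called at 0.85 (adjusted p = 0.00825) without female uninjured replicate 1, at 0.94 (0.00219) without male uninjured replicate 1, at 1.72 (1.23e-05) with scaling by library totals alone, and at 0.63 (0.0478) with the replicate number as a block.

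The lowest, median and highest levels of Ccn2 were 4.58, 6.98 and 20.5 CPM in uninjured muscle, 54.1, 86.4 and 185 CPM at day 4, 22.6, 26.3 and 84.4 CPM at day 7, 18.7, 27.9 and 44.2 CPM at day 11, and 73.1, 165 and 273 CPM at day 15. The 2 replicate 1 libraries were again the highest uninjured ones, both at 20.5 CPM, and reached into the day 11 range, while the other 4 were at 4.58 to 7.78 CPM. Days 4 and 15 lay above the uninjured and day 11 libraries without overlap. The log2 fold change of Ccn2 was 3.19 ± 0.42 at day 4, 1.67 ± 0.40 at day 7, 1.505 ± 0.40 at day 11 and 3.79 ± 0.44 at day 15, with an adjusted p of at most 0.00169 (edgeR). Ccn2 was thus 9.10-fold and 13.9-fold higher at the first and last of these days and 2.84-fold higher at day 11.

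Spon2 encodes spondin-2, also called mindin, a secreted thrombospondin-repeat protein known as an integrin ligand and a pattern-recognition molecule. Its lowest, median and highest levels were 0.264, 1.22 and 3.68 CPM in uninjured muscle, 0.245, 1.23 and 1.83 CPM at day 4, 2.45, 6.53 and 15.2 CPM at day 7, 13.5, 19.5 and 40.0 CPM at day 11, and 6.89, 30.3 and 55.1 CPM at day 15. Days 4 and 7 overlapped with the uninjured range, with the lowest day 4 library just below it, and days 11 and 15 were above it. At day 4 the log2 fold change was -0.16 ± 0.54 and not called (adjusted p = 0.795, edgeR), and its sign turned without female uninjured replicate 1 (0.0058), male uninjured replicate 1 (0.34) or female day 4 replicate 2 (0.053), and with scaling by library totals alone (1.13). Spon2 rose by 2.56 ± 0.54 at day 7, 4.09 ± 0.56 at day 11 and 4.37 ± 0.57 at day 15, with an adjusted p of at most 0.000158 (edgeR), and the last was 20.7-fold. Without female day 7 replicate 3 the day 7 value was 1.82.

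**Figure D2:**
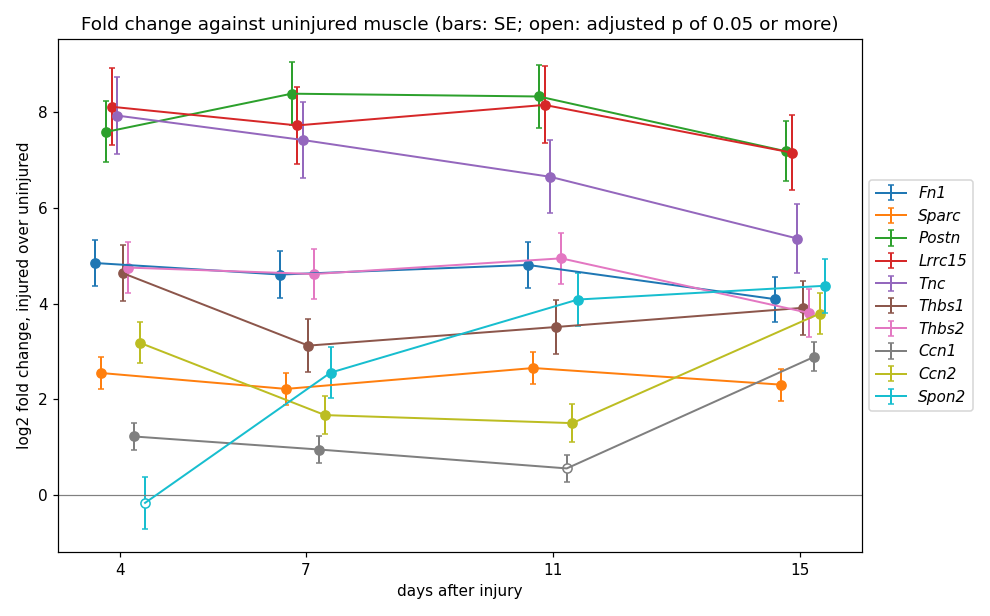
Log2 fold change of each gene against uninjured muscle at days 4, 7, 11 and 15, with bars of 1 SE; filled points passed an adjusted p under 0.05 and open points did not. The open points are Spon2 at day 4 (-0.16) and Ccn1 at day 11 (0.56), and Postn, Tnc and Lrrc15 have the largest values.

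Between day 7 and day 4, Spon2 rose and Thbs1 and Ccn2 fell, which is 1 gene higher and 2 lower of 10, where 18.5% of all genes were called higher and 16.7% lower. The Spon2 log2 difference was 2.72 ± 0.52 (adjusted p = 0.000568, edgeR), with all 6 day 7 libraries above all 6 of day 4, a separation that 5.17% of genes had. It was 2.00 without female day 7 replicate 3. Ccn2 fell by 1.51 ± 0.40 on the log2 scale (adjusted p = 0.00525, edgeR), as Thbs1 did by the same amount, and for both genes male day 7 replicate 2 overlapped with day 4. The other 7 genes had values of -0.51 to 0.80, and the median over the 10 was -0.30 against 0.05 over all genes.

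Between day 11 and day 7 none of the 10 genes was called by edgeR or by DESeq2, in a comparison where edgeR called 0.0584% of all genes in either direction. At an unadjusted p under 0.05 there was 1 gene of the 10, Spon2, with a log2 difference of 1.53 ± 0.48 (adjusted p = 0.326, edgeR). Without female day 7 replicate 3 that difference was 2.22 and was still not called (adjusted p = 0.0930, edgeR). The spread at both times was wide: male day 7 replicate 2 had the highest day 7 value for 9 of the 10 genes, and female day 11 replicate 3 the lowest day 11 value for 7 of them. The median over the 10 was 0.26 against -0.02 over all genes.

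Between day 15 and day 11, Ccn1 and Ccn2 rose and none of the 10 fell, where 2.00% of all genes were called higher and 2.25% lower. Of the called genes 47.0% were higher, and 67.2% when only the compared groups were fitted. Ccn1 was at 180.4 to 592 CPM in day 15 libraries, against 38.4 to 78.9 CPM in day 11 libraries, a log2 difference of 2.33 ± 0.29 or 5.03-fold (adjusted p = 2.92e-05, edgeR). Ccn2 was at 73.1 to 273 CPM in day 15 libraries, against 18.7 to 44.2 CPM in day 11 libraries, a log2 difference of 2.29 ± 0.41 or 4.88-fold (adjusted p = 0.00161, edgeR). Neither gene overlapped between the 2 times, as was so for 1.51% of all genes in the higher direction. Thbs1 (0.40) and Spon2 (0.29) also had positive values but did not pass the test, and the other 6 had values of -1.29 to -0.35 with adjusted p of at least 0.156 (edgeR). The median over the 10 was -0.53 against -0.05 over all genes.

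Over the whole injured span, day 15 against day 4, Ccn1 and Spon2 rose and Tnc fell, where 25.1% of all genes were called higher and 27.0% lower. Spon2 was at 6.89 to 55.1 CPM in day 15 libraries, against 0.245 to 1.83 CPM in day 4 libraries, which is 23.2-fold or 4.54 ± 0.55 on the log2 scale (adjusted p = 7.2e-07, edgeR). Ccn1 rose by 1.66 ± 0.29 on the log2 scale (adjusted p = 4.07e-05, edgeR). Both were higher without overlap, as 16.4% of genes were, and Tnc was lower without overlap, as 19.4% of genes were. For Ccn2 the difference was 0.61 ± 0.39 and for Thbs1 -0.72 ± 0.50, and neither was called (adjusted p = 0.193 and 0.232, edgeR). With only the compared groups fitted, 5 of the 10 genes were called in place of 3, and 5 were also called with scaling by library totals alone. Over all genes the number called was 10384 and 9011 under these settings, in place of 8934.

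**Figure D3:**
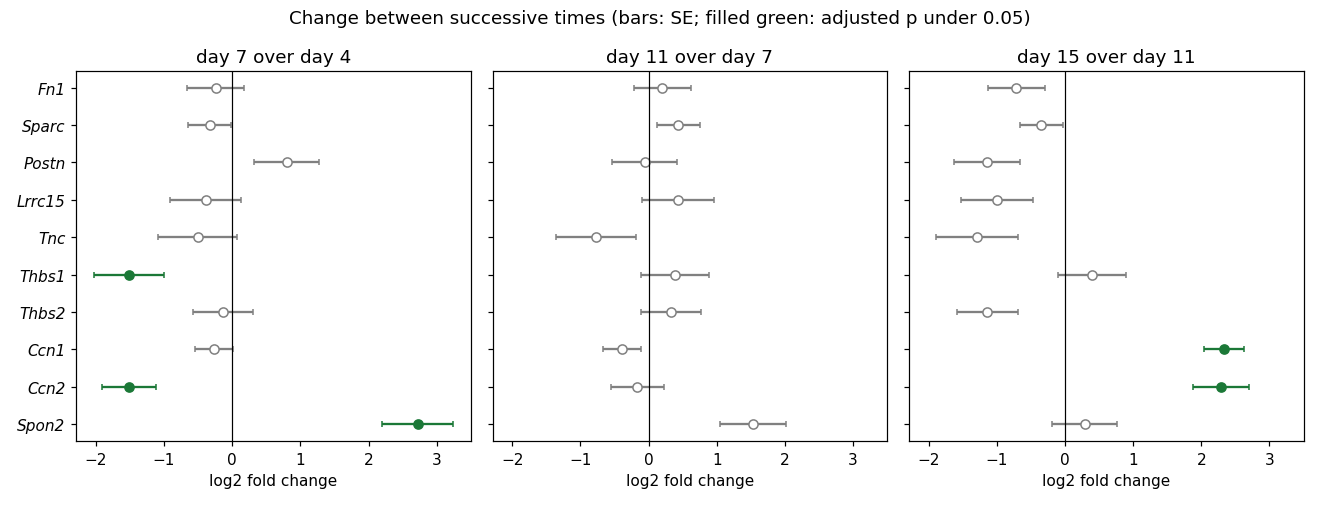
Log2 difference of each gene between successive injured days, in panels for day 7 over day 4, day 11 over day 7 and day 15 over day 11, with bars of 1 SE and filled green points for adjusted p under 0.05. Spon2, Thbs1 and Ccn2 are filled in the first panel, no gene in the second, and Ccn1 (2.33) and Ccn2 (2.29) in the third.

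Beside Ccn1 and Ccn2, immediate early genes, which are transcribed within minutes of a stimulus, were also higher at day 15. A list of 14 of them was chosen after Fos, Egr1 and Junb had been seen as the genes whose time course was most like that of Ccn1. Of the 14, 13 were called higher at day 15 against day 11, with a median log2 difference of 2.45 and a range of 0.87 to 5.50, and 11 did not overlap, where 2.00% of all genes were called higher and 1.51% were higher without overlap. The 13 include Fos, Egr1 and Junb, which prompted the list. Fos, a subunit of AP-1, was at 185 to 1197 CPM in day 15 libraries, against 9.99 to 29.6 CPM in day 11 libraries, a difference of 4.59 ± 0.45. Junb, another AP-1 subunit, was at 116 to 663 CPM in day 15 libraries, against 34.5 to 57.4 CPM in day 11 libraries, a difference of 2.46 ± 0.26. Their summed level was 497 to 938 CPM in uninjured muscle, 580.0 to 717 CPM at day 4, 493 to 814 CPM at day 7, 423 to 584 CPM at day 11 and 1377 to 7598 CPM at day 15. Within day 15, female replicate 3 had both the highest sum and the highest Ccn1 level. The uninjured libraries with the highest sums were female replicate 1 (719 CPM) and male replicate 1 (938 CPM), the same 2 in which Thbs1, Ccn1 and Ccn2 were highest. The part of these early genes in the levels of Ccn1 and Ccn2 was not tested. Of 23 genes of the YAP and TEAD list, edgeR called 0 between day 15 and day 11, with 4 at an unadjusted p under 0.05 and 1 called by DESeq2, in a comparison where edgeR called 2.00% of all genes higher and 2.25% lower.

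**Figure D4:**
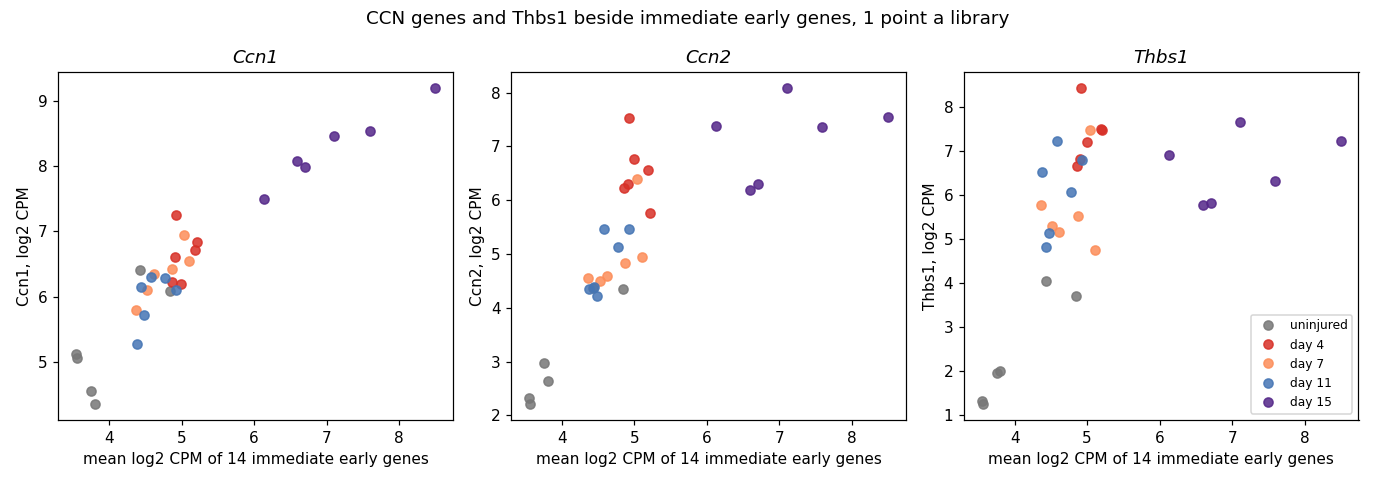
Log2 CPM of Ccn1, Ccn2 and Thbs1 in each of the 30 libraries against the mean log2 CPM of 14 immediate early genes in the same library. Day 15 libraries lie to the right at 6.13 to 8.50, apart from day 11 libraries at 4.38 to 4.93, and hold the highest Ccn1 values.

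Per kilobase of exon, the order of the 10 genes differed between times. In uninjured muscle the median levels were 104 CPM per kilobase for Sparc, 16.7 for Ccn1, 2.44 for Ccn2, 2.21 for Fn1, 0.791 for Thbs2, 0.694 for Postn, 0.644 for Thbs1, 0.416 for Spon2, 0.270 for Tnc and 0.0340 for Lrrc15. Sparc and Ccn1 were each apart from the gene below them, and the libraries of all other neighbours in this order overlapped. At day 4 the order began with Sparc (637 CPM per kilobase), Postn (148), Tnc (68.3), Fn1 (64.2) and Ccn1 (50.2), with Sparc apart from Postn, and it ended with Spon2 (0.419), which was apart from Lrrc15 (11.1) above it. At day 7 Sparc (415 CPM per kilobase), Postn (217) and Fn1 (50.7) led, and all neighbours in the order overlapped. At day 11 Sparc (728), Postn (267) and Fn1 (76.5) led again, with Ccn2 (9.74) and Spon2 (6.62) last. At day 15 Sparc (498 CPM per kilobase) was followed by Ccn1 (155), Postn (89.6), Ccn2 (57.8) and Fn1 (40.9), and Sparc was apart from Ccn1. Exon lengths came from an annotation of another build than the counts, so these levels rank genes only roughly.

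Across the 10 group means of log2 CPM, which share their libraries' depth and composition, Fn1, Postn, Tnc, Thbs2, Sparc and Lrrc15 had Pearson correlations of 0.951 to 0.996 among themselves. Thbs1 had 0.905 to 0.962 with these 6, 0.658 with Ccn1 and 0.884 with Ccn2. Ccn1 had 0.425 to 0.554 with the same 6 and 0.899 with Ccn2, and Spon2 had 0.311 to 0.536 with any other of the 10. Genes nearest in pattern were Vstm4, Vcan and F2r for Fn1 (0.995 to 0.996), Pias3, Fkbp11 and Cmtm3 for Postn (0.996 to 0.997), Tsku, Ms4a7 and Cd300c2 for Tnc (0.997 to 0.998), and Col18a1, Vcan and Il1rl2 for Lrrc15 (0.996 to 0.997). Bgn, Fkbp10 and Timp1 were nearest to Thbs2 (0.995 to 0.996), Rnase4, Tmsb4x and Ptgfrn to Thbs1 (0.994 to 0.998), and Gpsm2, Egfr and Matn2 to Sparc (0.992 to 0.994). Fos, Egr1 and Junb were nearest to Ccn1 (0.960 to 0.979), and Prkd3, Sik1 and Wee1 to Ccn2 (0.974). Dpt, Entpd2 and Eln were nearest to Spon2 (0.977 to 0.990). Dpt, which encodes the matrix protein dermatopontin and is on the fibroblast marker list, was at 121 to 463 CPM in day 15 libraries, against 21.1 to 86.2 CPM in day 4 libraries, and Eln, the gene of elastin, at 213 to 878 CPM against 55.2 to 104 CPM. All correlations here are descriptions over 10 points. For the 6 genes named first, the uninjured group means lay far below the injured ones. High correlations among them therefore need not mean a shared course between injured days. Of these 6, Tnc alone was called lower at day 15 than at day 4.

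Paralogs of the 10 genes had values of both signs. Thbs3, which lies in the other structural class of thrombospondins than Thbs1 and Thbs2, rose by a log2 fold change of 3.00 ± 0.31 at day 4 and 4.64 ± 0.33 at day 11, with median levels of 4.46 CPM in uninjured muscle, 39.9 CPM at day 4 and 110.1 CPM at day 11. Thbs4, a tendon thrombospondin, rose by 1.28 ± 0.36 at day 4 and 3.05 ± 0.38 at day 11, and Comp, the cartilage member, by 1.35 ± 0.56 and 3.84 ± 0.61. Unlike Tnc, Tnxb, the tenascin of loose connective tissue, fell by 1.08 ± 0.40 on the log2 scale at day 4 and rose by 1.84 ± 0.41 at day 15. Ccn3 rose by 1.70 ± 0.38 at day 4 and 4.13 ± 0.40 at day 15, whereas Ccn4, a Wnt-induced CCN protein, rose by 7.05 ± 0.52 and 4.47 ± 0.50 at those days. Ccn5 rose by 3.61 ± 0.49 and 1.97 ± 0.47 at those days, and Ccn6 had values of -0.85 to 1.26 over the 4 days, none of them called. Spon1 had 0.81 ± 0.42 at day 4, not called, and rose by 2.93 ± 0.44 at day 11. Sparcl1 fell by 0.79 ± 0.22 on the log2 scale at day 4, and Tgfbi, the paralog of Postn, rose by 3.83 ± 0.36. Differences between paralogs were not tested.

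**Figure D5:**
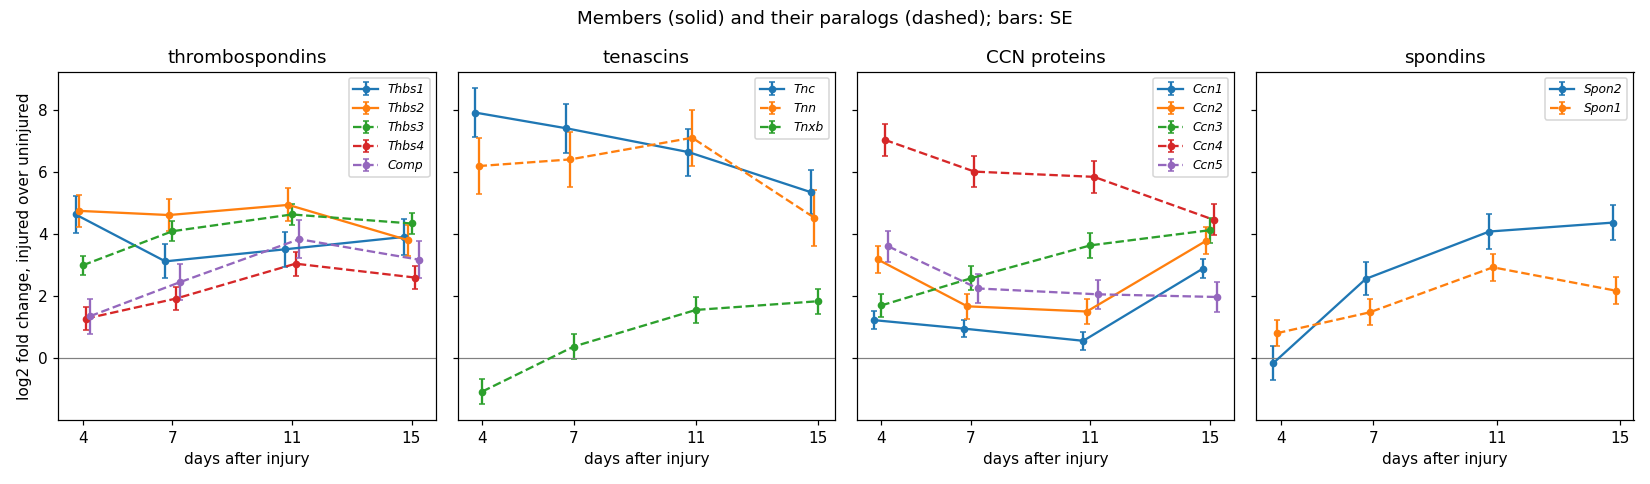
Log2 fold change against uninjured muscle at days 4, 7, 11 and 15 for the thrombospondin, tenascin, CCN and spondin families, with bars of 1 SE. Solid lines are Thbs1, Thbs2, Tnc, Ccn1, Ccn2 and Spon2, and dashed lines are paralogs. Fn1, Postn, Sparc and Lrrc15 are not drawn. Thbs3 (4.64), Tnxb (1.56) and Ccn3 (3.64) have larger values at day 11 than at day 4, and Tnc (6.65) and Ccn4 (5.85) smaller ones.

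Among 37 related matrix proteins, of which 32 were tested, 23 rose and 4 fell at day 4, 23 rose and 4 fell at day 7, 25 rose and 2 fell at day 11, and 25 rose and 1 fell at day 15. Over all tested genes 40.1%, 41.6%, 42.7% and 39.7% were called higher at the 4 days and 33.0%, 29.9%, 29.7% and 29.3% lower. The median log2 fold change of the list was 1.66, 2.09, 2.37 and 1.97, against 0.17, 0.24, 0.32 and 0.26 over all genes. Spp1, the gene of osteopontin, rose by 10.48 ± 0.81 at day 4 and 4.10 ± 0.64 at day 15, and Tnn, another tenascin, by 6.20 ± 0.89 and 4.53 ± 0.90. Tnn had a mean of only 7.94 CPM over all 30 libraries, so its fold changes rest on few uninjured counts. Hspg2, which encodes the basement membrane proteoglycan perlecan, rose by only 0.56 ± 0.16 and 0.93 ± 0.16 at those days. At day 15 against day 11, 5 of the 32 fell and none rose, where 2.25% of all genes were called lower and 2.00% higher.

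A list of 23 genes held receptors that bind these glycoproteins and adhesion proteins inside the cell, such as talin. Of the 23, 16 rose and 3 fell at day 4, 13 rose and 2 fell at days 7 and 11, and 14 rose and 4 fell at day 15. Of all tested genes, 40.1%, 41.6%, 42.7% and 39.7% were called higher at the 4 days and 33.0%, 29.9%, 29.7% and 29.3% lower. The median log2 fold change of this list was 1.34, 0.52, 0.59 and 0.61, against 0.17, 0.24, 0.32 and 0.26 over all genes. Cd44, a receptor of hyaluronan and osteopontin, rose by 4.68 ± 0.37 at day 4 and 3.40 ± 0.35 at day 15. Itga5, the alpha chain of the fibronectin integrin, rose by 3.00 ± 0.30 and 2.46 ± 0.29 at those days, and Sdc1, a heparan sulfate proteoglycan of the cell surface, by 3.31 ± 0.35 and 1.99 ± 0.33. Tln1, which encodes talin, rose by 0.48 ± 0.17 at day 4 and had 0.10 ± 0.17 at day 15, not called. At day 7 against day 4, 8 of the 23 fell and none rose, where 16.7% of all genes were called lower and 18.5% higher.

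Of 23 genes of the YAP and TEAD pathway, 11 rose and 9 fell at day 4, 10 rose and 6 fell at day 7, 9 rose and 6 fell at day 11, and 12 rose and 6 fell at day 15, with medians of 0.35, 0.35, 0.22 and 0.51, against 0.17, 0.24, 0.32 and 0.26 over all genes. The shares of all tested genes called were 40.1%, 41.6%, 42.7% and 39.7% higher and 33.0%, 29.9%, 29.7% and 29.3% lower at those days, and the counts of this list are read against them. The target genes Ankrd1 and Axl rose by 3.49 ± 0.38 and 2.97 ± 0.20 at day 4, and Tead2, a TEAD factor, by 2.53 ± 0.22. Yap1 itself fell by 0.42 ± 0.13 on the log2 scale at day 4 and had 0.02 ± 0.13 at day 15, not called. Of 21 genes of the transforming growth factor beta pathway, 13 rose and 6 fell at day 4, 11 rose and 5 fell at day 7, 14 rose and 5 fell at day 11, and 13 rose and 5 fell at day 15, with medians of 0.55, 0.55, 0.57 and 0.82, beside the same shares and medians over all genes. Ltbp2, which encodes a latent TGF-beta binding protein, rose by 9.15 ± 0.70 at day 4. Its mean over all 30 libraries was 24.2 CPM, so its uninjured level was near 0 and this value rests on few uninjured counts. Tgif1, a corepressor of SMAD proteins, rose by 2.55 ± 0.22 at day 4, and the receptor gene Tgfbr1 rose by 1.23 ± 0.17 at day 4 and had 0.29 ± 0.17 at day 15, not called.

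Markers of several cell types moved in the same libraries. Of all tested genes, 40.1%, 41.6%, 42.7% and 39.7% were called higher at days 4, 7, 11 and 15. The shares called lower were 33.0%, 29.9%, 29.7% and 29.3%, and the counts of markers called are read against these shares. The summed level of 10 macrophage markers, all called higher at each day, was 44.4 to 64.6 CPM in uninjured muscle, 2814 to 4126 CPM at day 4, 743 to 2606 CPM at day 7, 252 to 2642 CPM at day 11 and 306 to 1432 CPM at day 15, and Fcgr1 and Ms4a7 were at 0 in at least 1 uninjured library. Fibroblast markers summed to 753 to 1128 CPM in uninjured muscle, 734 to 1017 CPM at day 4, 701 to 1432 CPM at day 7, 788 to 2040.1 CPM at day 11 and 1354 to 3350.2 CPM at day 15, with 5, 6, 9 and 9 of 10 called higher and 3, 1, 1 and 0 called lower at the 4 days. The mean log2 CPM of these 10 markers was 4.93 to 6.06 in day 4 libraries, against 4.504 to 5.29 in uninjured libraries. Myofibroblast markers summed to 98.4 to 293 CPM in uninjured muscle, 578 to 1142 CPM at day 4 and 359 to 843 CPM at day 15, with 4 of 5 called higher at days 4, 7 and 11 and all 5 at day 15. Platelet and megakaryocyte markers, listed because platelets carry thrombospondin-1, summed to 5.76 to 18.0 CPM in uninjured muscle, 108 to 289 CPM at day 4, 34.3 to 77.2 CPM at day 7, 24.9 to 85.5 CPM at day 11 and 29.4 to 47.9 CPM at day 15, with Gp9 and Gp1bb at 0 in at least 1 uninjured library. The number of these 5 markers called higher was 4, 3, 4 and 5 at days 4, 7, 11 and 15, and none was called lower. Most of the day 4 sum was Pf4, at 101 to 272 CPM in day 4 libraries and 12.6 to 28.8 CPM in day 15 libraries. At day 15 against day 4 Pf4 was the 1 marker called lower, with 3 called higher. In that comparison 27.0% of all genes were called lower and 25.1% higher. Tenocyte markers summed to 89.9 to 307 CPM in uninjured muscle, 177 to 457 CPM at day 4, 551 to 1844 CPM at day 11 and 437 to 1824 CPM at day 15, with 4, 4, 5 and 5 of 5 called higher at the 4 days, and Thbs4 is on that list. Endothelial markers summed to 551 to 943 CPM in uninjured muscle, 411 to 599 CPM at day 4 and 1001 to 1383 CPM at day 15, with 6 of 8 called lower at day 4 and 6 higher and 1 lower at day 15. Pericyte and smooth muscle markers summed to 2274 to 5868 CPM at day 4, against 6028 to 9535 CPM in uninjured muscle, with 2 of 8 called higher and 5 lower. Most of that sum was Des, which muscle fibres also express, at 1964 to 5494 CPM in day 4 libraries, against 4981 to 8744 CPM in uninjured libraries. Satellite cell markers summed to 50.3 to 96.1 CPM at day 4, against 6.83 to 14.5 CPM in uninjured muscle, with 3 of 5 called higher. The 2 not called had negative values, the lowest a log2 fold change of -1.11. Schwann cell markers summed to 8.33 to 33.9 CPM at day 4, against 37.7 to 151 CPM in uninjured muscle, with 4 of 5 called lower. The part of any of these cell types in the levels of the 10 genes was not tested. Within a day the high and low libraries of the 10 genes also stood out in these lists: male day 7 replicate 2 had the highest day 7 sums of fibroblast (1432 CPM), myofibroblast (1125 CPM) and macrophage markers (2606 CPM), and female day 11 replicate 3 the lowest day 11 sums (788, 226 and 252 CPM).

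Sex made no difference that passed the test for any of the 10 genes. Between female and male uninjured libraries edgeR and DESeq2 called 0 of 10, with 0 at an unadjusted p under 0.05, where edgeR called 0.642% of all genes. The difference between female and male responses was likewise called for 0 of 10 by either tool at day 4 (0.0467% of all genes by edgeR), day 7 (0.123%), day 11 (0.0584%) and day 15 (0.210%), and in the joint test of the 4 days (0.0350%). At an unadjusted p under 0.05 there was 1 of 10 at day 15, which was Spon2, and 0 in each of the other 4 tests. Spon2 averaged 42.1 ± 11.6 CPM in female and 16.8 ± 10.6 CPM in male day 15 libraries, and 30.4 ± 9.09 CPM in female and 15.6 ± 1.91 CPM in male day 11 libraries (SD, n = 3 each). In uninjured muscle female libraries averaged 0.906 ± 0.559 CPM of Spon2 and male libraries 1.83 ± 1.64 CPM. The female minus male response of Spon2 differed by 2.32 ± 1.05 on the log2 scale at day 15 (adjusted p = 0.351) and 1.9595 ± 1.04 at day 11 (adjusted p = 0.523, edgeR). The 3 day 11 libraries labelled female, which also enter the joint test, include the one with male levels of Xist and Ddx3y. That library had the lowest Spon2 level of the 3 at 21.9 CPM. Without it the day 11 difference in response was 2.16 and was not called (edgeR). Over the omission of each library in turn, the Spon2 difference ran from 0.96 to 2.41 at day 11 and from 1.33 to 2.91 at day 15, with the lowest values without male uninjured replicate 1 and none called (edgeR).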

How the data were processed

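The authors deposited 1 file of raw read counts per gene symbol for each of the 30 libraries. Per the file headers the reads were aligned with STAR from 2 read files per library, and the submitters' processing notes name STAR, edgeR and the mm39 build; the counting tool, annotation and use of strand were not given in the sources used here. Between 65.5% and 77.5% of counts from 1 to 20 were even, as when both reads of a pair are counted, so halved counts were also tested. Antisense and overlapping genes could not be separated where strand was not used.

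Groups were taken from the labels. Genes were kept by edgeR's filterByExpr (17136 of 26264), scaled by TMM and fitted with 1 mean for each of 10 groups of sex and time (edgeR 4.0.16, R 4.3.3, quasi-likelihood test), with both sexes weighted equally and Benjamini-Hochberg adjustment over all tested genes. Adjusted p under 0.05 made a call. SE is the size of the log2 fold change divided by the square root of F. CPM in the text use TMM-scaled library sizes, and log2 CPM a prior count of 2. Tests were run on simulated data first. DESeq2 1.42.0, other scalings and filters, a replicate block, fits of the compared groups alone and fits without each library were the alternatives. Libraries of 1 group differed beyond sampling noise (the lowest chi-square per degree of freedom was 15.4), so none was counted as a duplicate.

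The 10 genes and all lists were chosen with earlier results of these data known. From each of the 4 pathway lists, the text names the 3 called genes with the largest and the 1 with the smallest absolute day 7 change among those with a mean of at least 1 CPM, plus paralogs. A gene that this rule names is not reported here. Nearest genes were those with a mean of at least 5 CPM and the highest Pearson correlation over group means. Promoter sequences are RefSeq's for GRCm38.p6, and exon lengths come from GENCODE on GRCm38.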

Additional observations from a re-analysis of the deposited data

Results flagged for a closer look

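In 1 of 50 groups of 6 libraries tested (10 genes at 5 times), a library stood apart from the other 5 by Dixon's test on log2 CPM, and chance alone flags about 1 in 20 such groups. The group was Ccn2 at day 7, where male day 7 replicate 2 had 84.4 CPM and the other 5 libraries had 22.6 to 30.7 CPM. On linear CPM, a scale tried after seeing the data, 7 of the 50 groups passed the same critical value, 5 of them at day 7, for Fn1, Thbs1, Sparc, Ccn2 and Lrrc15, through male day 7 replicate 2; the other 2 were Thbs1 at day 4 through female day 4 replicate 2 (344 CPM) and Spon2 in uninjured muscle through male uninjured replicate 1 (3.68 CPM). Male day 7 replicate 2 had the highest day 7 level of 9 of the 10 genes.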

How the results depend on the processing

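The alternatives were RLE scaling, scaling by library totals, no filter on low counts, a filter of above 1 CPM in 3 libraries, DESeq2, a fit of the compared groups alone, a replicate block, halved counts and the omission of each library in turn. Over the 8 differences between times, 633 of 640 values of the 10 genes kept their direction and side of the threshold, 6 became called and 1 turned sign. The last was Spon2 at day 4 with library totals, at 1.13 (adjusted p = 0.0617, edgeR). With library totals, Ccn1 at day 11 was called, as were Fn1 (-1.04, adjusted p = 0.0484) and Thbs2 (-1.23, 0.0329) at day 15 against day 4; with the compared groups alone, Thbs2 (-0.93, 0.00522) and Lrrc15 (-0.94, 0.0287) were called there (edgeR). These gave 5 called genes of the 10 under either alternative, against 3. Over all genes 9011 were called there with library totals and 10384 with the compared groups alone, against 8934.

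Without 1 library, 2376 of 2400 values kept both, 4 became called, 4 lost their call and 16 turned sign, all of the last uncalled. Spon2 at day 4 ran from -0.47 to 0.34, Thbs2 at day 7 against day 4 from -0.67 to 0.063, and Spon2 at day 15 against day 11 from -0.0048 to 0.47. At day 11 against day 7, Fn1 ran from -0.13 to 0.69, Postn from -0.40 to 0.54, Tnc from -1.21 to 0.39 and Ccn2 from -0.42 to 0.23, and the upper ends all came without male day 7 replicate 2.

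Replicate numbers showed no pairing on average: same-numbered libraries had a mean correlation of 0.0125 over 135 pairs, and different numbers -0.0063 over 270. A mean over all groups cannot show whether libraries of a single time were paired. With the replicate block, Ccn1 at day 11 was called at 0.63, and no other call among the 10 genes changed.

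Counts over all genes moved more. At day 11 against day 7, 10 genes were called, 5 with library totals, 121 by DESeq2, 1 with the compared groups alone, and 3 (without male day 7 replicate 2) to 31 (without female day 11 replicate 3). At day 15 against day 11, 727 genes were called, 1264 by DESeq2, 412 with the compared groups, and 301 (without female day 11 replicate 2) to 1506 (without female day 11 replicate 3). At day 7 against day 4 the omissions gave 3974 (without male day 7 replicate 1) to 6777. For female against male uninjured libraries, 110 genes became 323 by DESeq2, 254 with the compared groups, and 32 (without female uninjured replicate 3) to 168. The higher share of calls changed under library totals to 37.0% at day 7 against day 4, in place of 52.6%, to 30.8% at day 15 against day 4, in place of 48.2%, and to 13.9% for female against male uninjured libraries, in place of 28.2% (48.0% by DESeq2). At day 15 against day 11 it was 67.2% with the compared groups alone, in place of 47.0%.

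For the sex difference in response at day 4, 8 genes became 5 with RLE, 5 with library totals, 4 without the filter, 34 by DESeq2, 1 with the compared groups, and 0 to 11 without 1 library. At day 7, 21 became 56 by DESeq2, 0 with the compared groups, 9 with halved counts, and 2 to 204. At day 11, 10 became 23 with library totals, 16 with the filter of above 1 CPM, 80 by DESeq2, 2 with the compared groups, and 5 to 23. At day 15, 36 became 201 by DESeq2, 278 with the compared groups, 22 with halved counts, and 8 to 51. In the joint test, 6 became 102 by DESeq2, 3 with halved counts, and 0 to 13. The lowest values came without female uninjured replicate 1, or at day 15 without male day 15 replicate 3, and the highest without female day 7 replicate 1. Spon2 ran from -0.50 to 0.96 at day 4 and -0.69 to 1.16 at day 7, and no sex difference of any of the 10 genes was called under any of these settings; of the uncalled values of the other 9, 8 of 359 turned sign under the alternatives and 58 of 1350 without 1 library. Lrrc15 could not be fitted in female against male uninjured libraries alone, where it did not pass the count filter. The cause of these changes was not tested. The wide spread within days 7 and 11 limits the steps between injured days, and few counts limit Lrrc15 in uninjured muscle and Spon2 before day 7.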
